A study of Mus musculus with 2 samples.

Results

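Pericytes are mural cells that sit in the wall of capillaries and small venules, share a basement membrane with the endothelium and help to set vessel calibre and permeability. In skin they express the regulator of G protein signaling Rgs5, the KATP channel subunits Kcnj8 and Abcc9 and the adhesive protein vitronectin (Vtn), and they carry little of the smooth muscle myosin Myh11. White blood cells that enter inflamed skin pass the pericyte layer after the endothelium, and cells of this layer can make chemokines. In the present data pericytes were selected on raw counts of unique molecular identifiers (UMIs, which mark single captured transcripts). A pericyte had at least 3 UMIs of Rgs5, at least 1 UMI of Abcc9, Kcnj8, Vtn and Colec11 together, at most 2 UMIs of Myh11 and none of the leukocyte gene Ptprc or the endothelial gene Pecam1. The selection found 267 pericytes among 23878 cells. Of these, 66 were among the 11665 cells of ACD and the others among the 12213 cells of control.

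The study asked how the cell types of skin respond in allergic contact dermatitis (ACD), a T cell driven reaction to a contact allergen. ICR mice, male in the study's methods and 7 to 8 weeks old, were sensitized on the back with 1.0% of the hapten dinitrofluorobenzene (DNFB), and after 6 days 0.2% DNFB was put on the ear to elicit ACD. Ear skin was taken 60 hours later, and the control library came from healthy ear skin of the same strain and age. Each group was 1 single-cell library (CTRL and ACD), how many mice were pooled in it is not given in the sources used here, and ICR is an outbred stock. With 1 library per group no difference below has a replicate check, no test was run, and intervals are exact 95% intervals that cover counting error only.

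Of 12895 and 13163 deposited barcodes in control and ACD, the filters of the study's methods left 12213 and 11665, in both libraries more than the number of cells those methods give. The libraries shared 50 barcodes, none of them in a pericyte. Pericytes held 1067244 UMIs in control and 554174 in ACD. The median pericyte had 4449 UMIs and 1762 genes in control and 7821.5 UMIs and 2515.5 genes in ACD, so ACD pericytes were the deeper ones. A deeper cell passes 2 UMIs of Myh11, or reaches 1 of Ptprc or Pecam1, more easily at the same level of these genes. The median share of mitochondrial UMIs in pericytes was 4.505% in control and 3.74% in ACD. For comparison 4 other classes were gated in the same way, with 456 and 282 cells in a vascular smooth muscle gate, 82 and 72 in an endothelial gate, 3752 and 1945 in a fibroblast gate and 2052 and 1467 in a chondrocyte gate (control and ACD). The smooth muscle gate left out pericytes but had no limit on Rgs5. Cells that missed the pericyte selection by Myh11 alone can therefore lie in it.

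The selected cells carried pericyte genes that the selection did not use. In control, Pdgfrb, the PDGF-B receptor that recruits mural cells to vessels, stood at 547 UMIs per 1000000 UMIs of the class (95% Poisson interval 504 to 593), against 171 in the fibroblast gate and 13.1 in the endothelial gate. Higd1b, a small mitochondrial protein and common pericyte marker, stood at 435 (396 to 476) in control pericytes, against 129 in the smooth muscle gate and 0.259 in the fibroblast gate. Acta2 and Tagln, contractile genes of smooth muscle, stood at 961 and 886 in control pericytes and at 8585 and 7874 in the control smooth muscle gate. Cspg4, which encodes the NG2 proteoglycan, was low at 32.8 and did not set these cells apart, since the chondrocyte gate stood at 253. The label pericyte was therefore kept.

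The selection was checked at its limits. The Rgs5 count per pericyte ran from 3 to 165 with a median of 43 in control and from 4 to 148 with a median of 29.5 in ACD. Just inside the limit, 7 control and 5 ACD pericytes had 3 to 5 UMIs of Rgs5, and just outside it, 10 control and 12 ACD cells missed only by having 1 or 2, at median depths of 11915.5 and 16187.5 UMIs, of which 0 and 1 had 2. The Myh11 limit alone kept out 155 control and 90 ACD cells, with median depths of 4808 and 9465.5 UMIs, and 63 and 22 of them had only 3 to 5 UMIs of Myh11. Pericytes with 2 UMIs of Myh11, the highest count allowed, numbered 50 in control and 16 in ACD. The cells thus lie on a range from pericyte to smooth muscle, and the limit on Myh11 is a point on that range.

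Among the genes used to select the cells, Rgs5 stood at 9272 UMIs per 1000000 (9091 to 9457) in control and 4571 (4394 to 4752) in ACD, and Colec11, a collectin of the complement lectin pathway, at 289 (257 to 323) and 121 (93.7 to 154). Kcnj8 stood at 707 and 619, Vtn at 559 and 424 and Abcc9 at 577 and 383. These values describe the selection and were not used as findings. Of 20 ranked pericyte markers that the selection did not use, none differed by 2-fold, and their median log2 ratio of ACD over control was -0.09. Pdgfrb stood at 561 (501 to 627) in ACD, next to its 547 in control. Ndufa4l2, a hypoxia-responsive subunit relative of the respiratory chain, stood at 1193 (1128 to 1260) and 1137 (1049.8 to 1229), and Cox4i2, a cytochrome oxidase subunit of oxygen-sensing cells, at 915 (858 to 974) and 962 (882 to 1047). The intervals of these 3 genes overlapped between the libraries. Other markers of the list lay further from 0, among them Aspn at -0.86, Gucy1a3 at -0.76, Ednra at 0.49 and Art3 at 0.57. Of the 20 markers, 9 lay above 0.

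**Figure D1:**
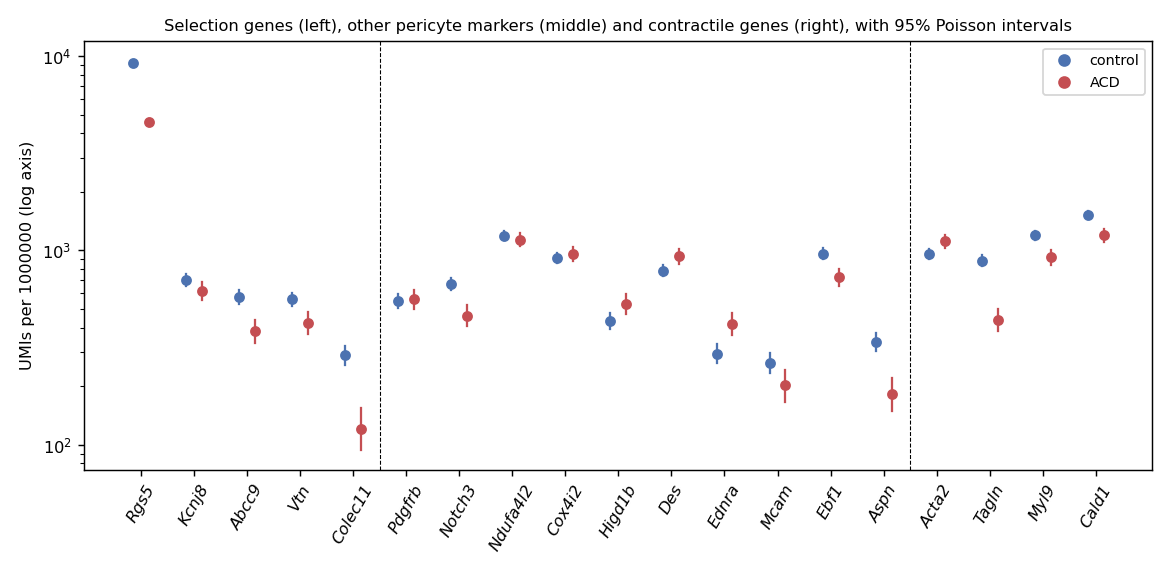
Levels in UMIs per 1000000 (log axis) of 5 genes used for the selection, 10 other pericyte markers and 4 contractile genes in control (blue) and ACD (red) pericytes, with 95% Poisson intervals as bars. Pdgfrb, Ndufa4l2 and Cox4i2 overlap between the libraries, while Aspn and Ednra have log2 ratios of -0.86 and 0.49. Rgs5 lies at 9272 in control and 4571 in ACD. Tagln lies at 886 and 440, with a ratio of -0.99 that is 0.67 with no limit on Myh11.

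Pericytes made up 1.65% of the control cells (Clopper-Pearson interval 1.43 to 1.89) and 0.566% of the ACD cells (0.438 to 0.719). The log2 ratio of the shares was -1.54 (-1.96 to -1.13). With the selection made after every cell was thinned to 2000 UMIs, the shares were 2.01% and 0.759%, a log2 ratio of -1.40. With no limit on Myh11 they were 2.91% and 1.34%, a log2 ratio of -1.12. The share of 1 class depends on how many cells of the other classes were captured, and with 1 library per group it cannot be told apart from differences between dissections.

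ACD was then compared with control in pericytes over the 4315 genes with at least 50 UMIs in both libraries together. Genes were ranked by the log2 ratio of their levels after 10 UMIs per 1000000 were added to each side, which pulls the ratio of a low gene towards 0, and a gene past 2-fold on this scale was called higher or lower. This gave 98 genes at least 2-fold higher in ACD, 2.27% of those ranked, and 184 at least 2-fold lower, 4.26%, around a median of -0.10. Scaling by the median of ratios between the libraries added 0.12 to every log2 ratio and gave 129 higher and 140 lower. The genes higher in ACD were led by interferon-inducible genes: 9 of the 15 highest, and 45 of all 98, belonged to lists of interferon-stimulated, interferon signaling, MHC or immunity GTPase genes. Without the 3 MHC class II genes, most of whose UMIs lay in few cells, these were 6 of the 15 and 42 of the 98. Of the 4315 ranked genes, these lists held 22 antiviral, 14 interferon signaling, 18 MHC class I, 3 MHC class II and 10 GTPase genes. The lists were chosen with earlier results of these data known. Some members were ranked only through their ACD UMIs, so these counts are a description. The remaining 6 of the 15 highest were the chemokines Cxcl9 and Cxcl10, the CALHM channel relative Fam26f, the endothelial-type receptor Ecscr, and the keratins Krt15 and Krt5.

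**Figure D2:**
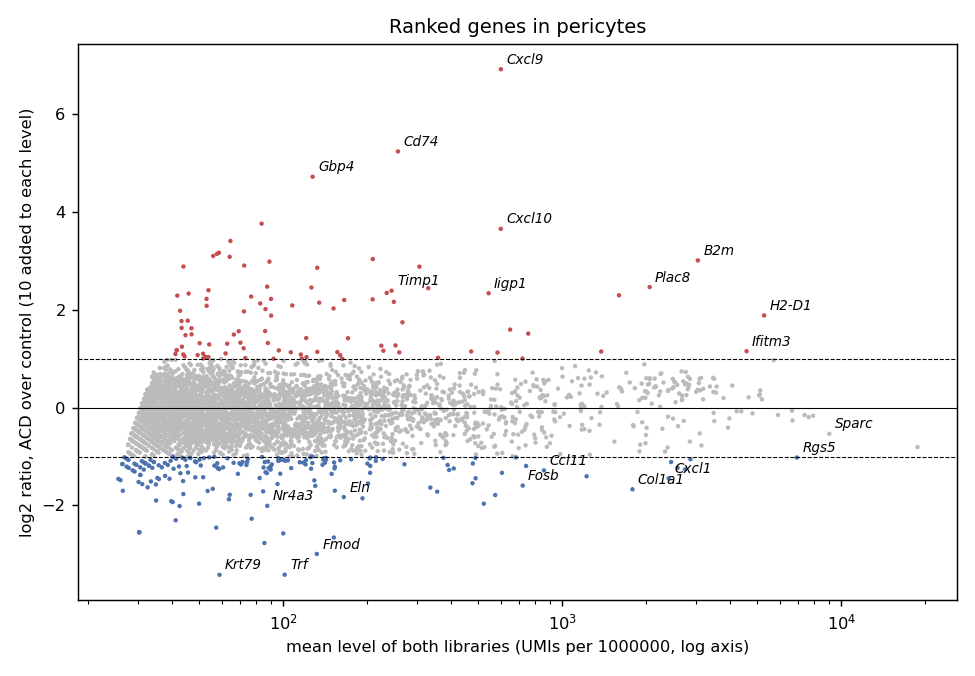
Each point is 1 of 4315 ranked genes in pericytes, with its mean level in both libraries (UMIs per 1000000, log axis) against its log2 ratio of ACD over control after 10 was added to each level. Red and blue points lie past 2-fold (dashed lines), 98 above and 184 below, with Cxcl9 at 6.92 and Trf and Krt79 at -3.42 as the ends.

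The highest ratio belonged to Cxcl9 (chr5:92321347-92328079, minus strand, GRCm38), an interferon-γ-inducible chemokine that draws T cells through the receptor CXCR3. Control pericytes held 0 UMIs of Cxcl9 and ACD pericytes 667 UMIs in 25 of 66 cells. The ACD level was 1204 UMIs per 1000000 (1114 to 1298). This was 428-fold the control level with the control count set to 3 UMIs, and the exact interval of the log2 ratio began at 8.44. Cxcl10 (chr5:92346638-92348889, minus strand), the neighbouring gene for a second CXCR3 ligand, had 85 UMIs in 22 control cells and 622 UMIs in 26 ACD cells. Its level was 79.6 (63.6 to 98.5) in control and 1122 (1036 to 1214) in ACD, and the log2 ratio was 3.82 (3.49 to 4.16). Both chemokines were uneven among ACD pericytes: the top 5 cells held 55.6% of the Cxcl9 UMIs and 77.5% of the Cxcl10 UMIs. Without the single cell that held the most of a gene in each library, the log2 ratio with 10 added was 6.53 for Cxcl9, against 6.92, and 3.50 for Cxcl10, against 3.66. The lowest values under any setting were 6.13 for Cxcl9 and 3.02 for Cxcl10, without cells holding genes of another class.

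The share of ACD pericytes with Cxcl9 was similar when all cells were brought to 1 depth. With every cell thinned to 2000 UMIs, which left out 7 control and no ACD pericytes, Cxcl9 was found in 0 of 194 control pericytes (interval 0 to 1.88%). A count of 0 at this depth does not limit the share of cells that express the gene. In ACD Cxcl9 was found in 22 of 66 pericytes, 33.3% (22.2 to 46.0). Unthinned, the ACD share was 37.9%. The chondrocyte gate, used as a background, gave 0.820% (0.424 to 1.43) in ACD after thinning and 3.14% before. Median depths were 10182 UMIs in chondrocytes and 7821.5 in pericytes. Before thinning this background was 0.146% in control, so it was itself higher in ACD. For Cxcl10 the thinned share was 8.25% (4.79 to 13.0) in control and 28.8% (18.3 to 41.3) in ACD pericytes, against 1.12% and 2.53% in the chondrocyte gate, and unthinned it was 10.9% and 39.4% in pericytes and 3.02% and 7.70% in the chondrocyte gate. Both shares in ACD pericytes were above this background.

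The ACD pericytes with and without Cxcl9 also differed in other interferon-inducible genes. The 25 pericytes with a Cxcl9 UMI had a median depth of 10610 UMIs and the 41 without one of 6417, so levels rather than shares are compared here. Gbp4, a guanylate-binding protein, stood at 460.4 UMIs per 1000000 in the pericytes with Cxcl9 and 62.7 in those without. Gbp2 of the same family stood at 651 and 129, and the immunity-related GTPase Iigp1 at 1497 and 373. B2m, the light chain of MHC class I, was closer, at 6228 and 4725. Of the 25 cells with Cxcl9, 15 held Cxcl10, 23 held Gbp4 and 25 held Iigp1. Of the 41 shallower cells without Cxcl9, 11 held Cxcl10, 9 held Gbp4 and 25 held Iigp1. The cells were split by Cxcl9 after the data were seen, all come from 1 library, and these values are a description.

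**Figure D3:**
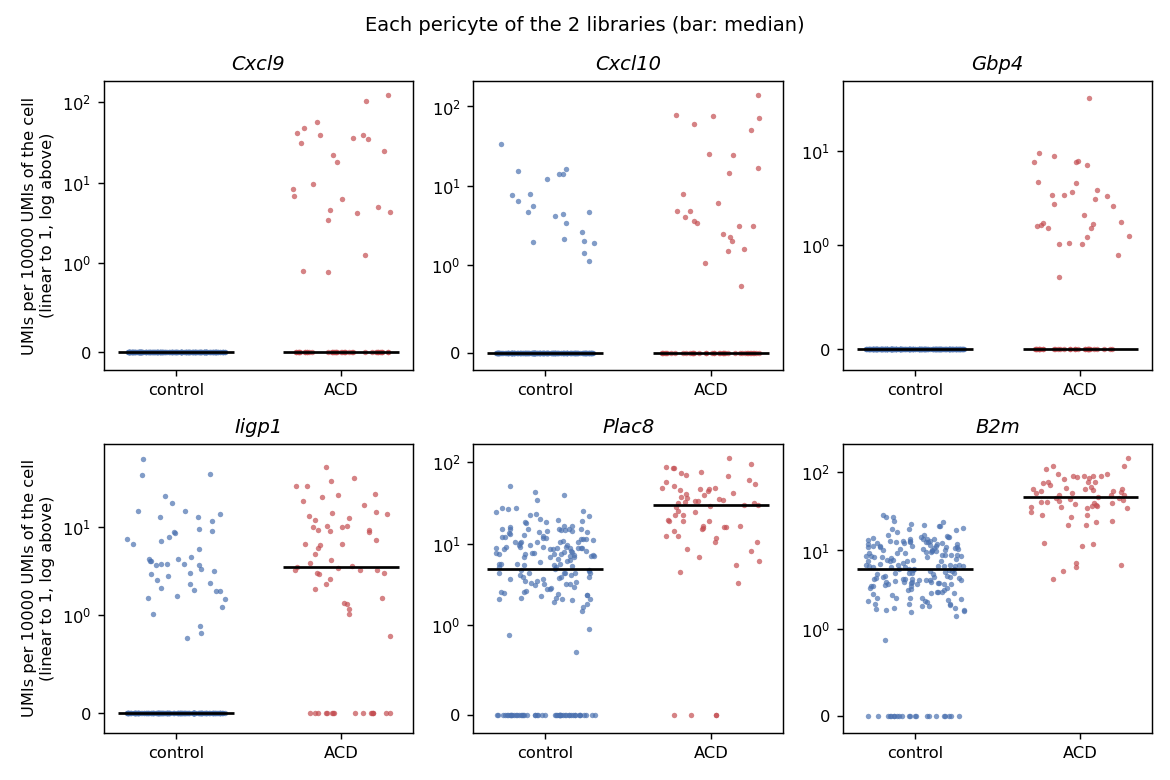
Each point is 1 of 267 pericytes, in control (blue) or ACD (red, 66 cells), with its UMIs of a gene per 10000 UMIs of the cell (axis linear to 1 and logarithmic above) and a bar at the median. Cxcl9 and Gbp4 lie at 0 in every control pericyte, whereas Plac8 and B2m are found in most control pericytes and are shifted up in ACD as a whole.

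Interferons act through STAT and IRF factors that bind the interferon-stimulated response element (ISRE) and the gamma-activated site (GAS) in promoters. To show such letters where they lie, promoters of 5 interferon-inducible genes higher in ACD pericytes are given from RefSeq (GRCm38.p6), 60 bases each from the strand of the gene and upstream of the RefSeq start used for the promoter, which can differ from the start of the gene in GENCODE (in Gbp2 the GENCODE start lies inside the window), with matches to GAAANNGAA (the ISRE core, either strand) or TTCNNNGAA (GAS, which reads the same on both strands) in capitals.
Cxcl9, chr5:92328221-92328280, minus strand: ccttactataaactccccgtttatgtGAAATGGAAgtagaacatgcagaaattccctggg
Cxcl10, chr5:92349069-92349128, minus strand: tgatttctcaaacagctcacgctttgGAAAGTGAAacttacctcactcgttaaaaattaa
Gbp2, chr3:142620579-142620638, plus strand: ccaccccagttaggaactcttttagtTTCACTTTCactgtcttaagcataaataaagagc
Igtp, chr11:58199491-58199550, plus strand: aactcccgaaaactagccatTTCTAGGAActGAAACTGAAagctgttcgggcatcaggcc
B2m, chr2:122147522-122147581, plus strand: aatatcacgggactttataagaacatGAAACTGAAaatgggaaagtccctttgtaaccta

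The ISRE match begins 175 bases before the start in Cxcl9, 213 in Cxcl10, 58 in Gbp2 (on the opposite strand) and 139 in B2m, and the window of Igtp holds a GAS match 45 bases before the start followed by an ISRE match. Of the 45 interferon, MHC and GTPase genes that were higher in ACD pericytes, 33 had a promoter in the table of 300 bases each (250 before to 50 after the start). The ISRE letters were found in 16 of these 33, 48.5%, against 9.76% of all 27025 genes in the table, and the GAS letters in 6, 18.2%, against 9.55%. Such genes were listed because interferons are known to induce them, and a match describes letters, not binding.

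Guanylate-binding proteins and immunity-related GTPases, which attack the vacuoles of intracellular microbes, had 17 listed members, of which 10 were ranked. Each of these 10 was at least 2-fold higher in ACD pericytes, beside 2.27% of all ranked genes. Their median log2 ratio was 2.28, against -0.10 over all ranked genes. Gbp4 (chr5:105115767-105139586) had 0 UMIs in control and 141 UMIs in 32 ACD cells, a level of 254 (214 to 300.1). This was 90.5-fold the control level with the control count set to 3, and the exact interval of the log2 ratio began at 6.18. Gbp2 (chr3:142620602-142638008) stood at 37.5 (26.8 to 51.0) in control and 381 (331 to 436) in ACD. Gbp7 stood at 43.1 and 226 and Igtp at 25.3 and 155. Among members too low to be ranked, Gbp9 had 0 and 37 UMIs, Tgtp1 0 and 20 and Gbp8 0 and 11. A gene such as Gbp4 reached the 50 UMIs of a ranked gene only through ACD and so had to differ, which makes the count of the family a description. The smallest ratios of the family, on the scale with 10 added, were 1.17 for Ifi47 and 1.10 for Irgm1. Ifi47 was past 2-fold in 13 of 16 settings, with 0.87 without cells holding genes of another class as its lowest value. Irgm1 was under 2-fold in 5 of 13 settings of the processing in which it was ranked, with 0.76 as the lowest value.

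Iigp1, also called Irga6, was the member of this family with the highest level in pericytes, and it was already present in control. It had 184 UMIs in 50 control pericytes and 507 UMIs in 50 of 66 ACD pericytes, with levels of 172 (148 to 199) and 915 (837 to 998) and a log2 ratio of 2.41 (2.16 to 2.66). In control the level of Iigp1 was 1.84 (1.40 to 2.39) in the fibroblast gate, 30.6 (24.6 to 37.6) in the smooth muscle gate and 80.0 (62.0 to 102) in the endothelial gate. The log2 ratio of pericytes over the fibroblast gate was 6.55 (6.11 to 7.00) in control and 1.48 (1.35 to 1.61) in ACD, since Iigp1 in the fibroblast gate reached 328 (321 to 336). After thinning to 2000 UMIs, Iigp1 was found in 16.0% (11.1 to 21.9) of control and 53.0% (40.3 to 65.4) of ACD pericytes, against 0% and 3.14% in the chondrocyte gate; the unthinned shares were 24.9% and 75.8% in pericytes and 0.146% and 7.43% in the chondrocyte gate.

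Genes of MHC class I and the immunoproteasome, which cut and display cytosolic peptides to CD8+ T cells, formed another family with many higher members. Of 23 listed members 18 were ranked, and 15 of these were at least 2-fold higher and none lower, beside 2.27% and 4.26% of all ranked genes, with a median of 1.96. Members low in control, such as Psmb9 and Tap1, were ranked only through their ACD UMIs and so had to differ. The count and median are therefore a description. B2m had 711 UMIs in 179 control pericytes and 3020 UMIs in 66 of 66 ACD pericytes, with levels of 666 (618 to 717) and 5449.6 (5257 to 5647). The heavy chain H2-K1 stood at 532 (489 to 578) and 2658 (2524 to 2797) and H2-D1 at 2242 (2153 to 2334) and 8326 (8087 to 8569.7). The immunoproteasome subunits Psmb8 and Psmb9 stood at 65.6 and 549 and at 24.4 and 240.0, and the peptide transporter Tap1 at 19.7 and 155. The members under 2-fold were the general chaperones Calr, Pdia3 and Canx, with ratios of 0.47, 0.26 and 0.14. H2 genes are near-identical copies of each other in places, so the division of UMIs among them is uncertain.

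Of 44 listed antiviral interferon-stimulated genes 22 were ranked, and of these 15 were at least 2-fold higher and none lower, with a median of 1.45, beside 2.27% and 4.26% of all ranked genes. As for the GTPases, genes such as Zbp1 and Ifit3 were ranked only through their ACD UMIs and so had to differ, which makes the count and median a description. Zbp1, a sensor of Z-form nucleic acids, had 4 UMIs in control and 62 in 28 ACD cells, and Ifit3, which binds viral RNA complexes, 4 and 60. Bst2 (tetherin) stood at 84.3 and 413. The membrane protein Ifitm3 was already at 2828 (2728 to 2931) in control and reached 6314 (6106 to 6527), whereas its relatives Ifitm1 and Ifitm2 had ratios of 0.43 and 0.33. Isg15, a ubiquitin-like modifier, had a ratio of 1.13 that stood at 0.88 without cells holding genes of another class and at 0.36 with Myh11 held to 0.

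Among 14 ranked genes of interferon receptors, JAK kinases, STAT and IRF factors, 2 were at least 2-fold higher and none lower. The shares of all ranked genes were 2.27% and 4.26%, and the median of the list was 0.13. Irf7, a factor that amplifies interferon responses and was among the higher genes, had 13 UMIs in 12 control cells and 52 UMIs in 21 ACD cells, with levels of 12.2 (6.49 to 20.8) and 93.8 (70.1 to 123). Its ratio of 2.23 was 0.89 without cells holding genes of another class, where too few UMIs were left to rank it. The receptor chain Ifngr1 stood at 51.5 (38.8 to 67.1) in control and 61.4 (42.5 to 85.7) in ACD and Ifngr2 at 131 (110.4 to 155) and 97.4 (73.2 to 127), with intervals that overlapped. Irf1, which interferon induces in many cells, was at 943 (885 to 1003) in control and at 641 (576 to 711) in ACD, a ratio of -0.55 that was not past 2-fold.

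Leaving out the MHC class II genes, 42 genes of the interferon-type lists were called higher, and under other processing 32 of these were past 2-fold in each of the settings tried, whether or not enough UMIs were left to rank them there, and all 42 stayed above 0. Past 2-fold were 39 with no limit on Myh11, 41 after selection on thinned cells, 37 without cells holding genes of another class and 42 without the top cell of each gene. The 3 MHC class II genes were not past 2-fold without cells holding genes of another class, where H2-Aa was at -0.40.

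**Figure D4:**
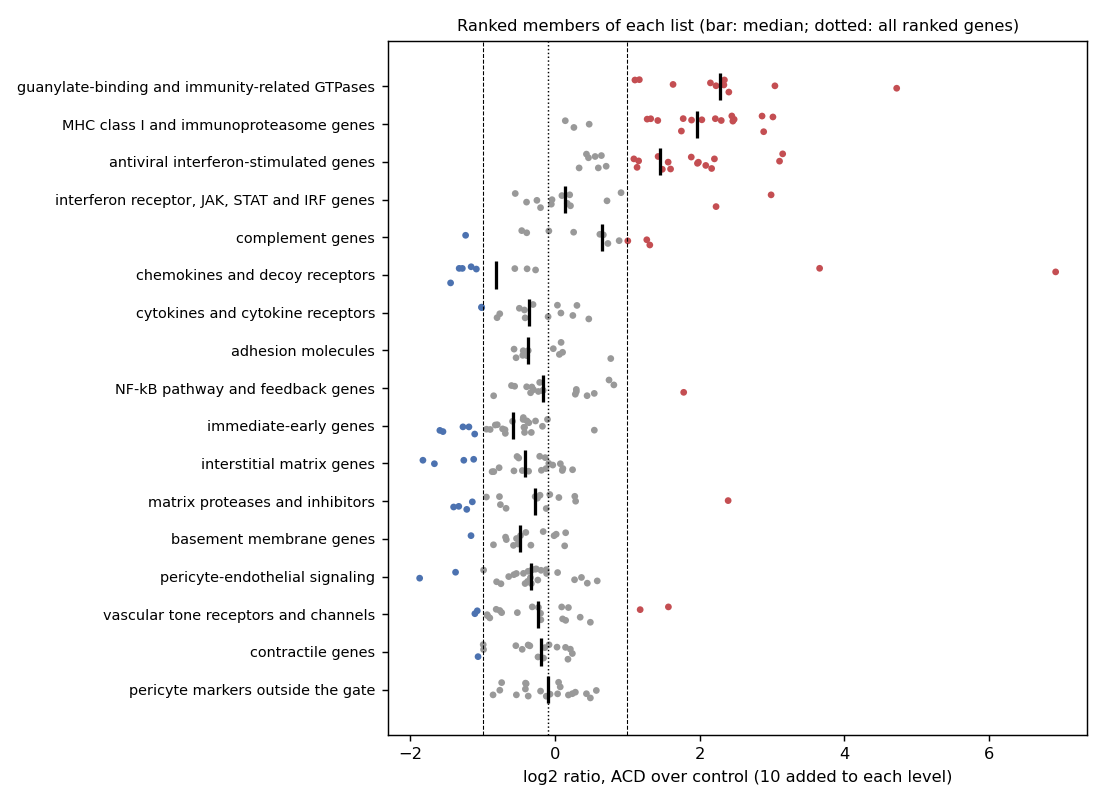
Each point is a ranked gene of a list, placed by its log2 ratio of ACD over control in pericytes (10 added to each level), with the list median as a bar, the median of all ranked genes (-0.10) as a dotted line and 2-fold as dashed lines. The GTPase, MHC class I and antiviral lists have medians of 2.28, 1.96 and 1.45, while the lists of chemokines and immediate-early genes have medians of -0.82 and -0.59.

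3 genes outside those lists were also high in ACD pericytes. Plac8, a small cysteine-rich protein first described in placenta, had 664 UMIs in 151 control cells and 1932 UMIs in 62 of 66 ACD cells, with levels of 622 (576 to 671) and 3486 (3333 to 3645). In control Plac8 stood at 41.1 in the smooth muscle gate, 10.8 in the fibroblast gate and 0 in the endothelial gate, and in ACD at 529.7, 230.4 and 3.28, so that pericytes were the highest of the 5 classes in both libraries. Fam26f, a membrane protein also known as Calhm6, had 6 UMIs in control and 68 UMIs in 21 ACD pericytes. Ecscr, a surface protein of endothelial cells, had 10 and 75 UMIs, in 9 and 28 pericytes. The endothelial genes Cdh5, Tie1, Robo4 and Ptprb were at 0 in control pericytes, and Tie1, Tek, Vwf, Cldn5, Robo4 and Ptprb were at 0 in ACD pericytes. All 14 endothelial markers together stood at 296 in control and 361 in ACD, mostly Plvap, Eng and Flt1.

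Of the 5 gated classes, pericytes held the highest levels of Cxcl9 and Cxcl10 in ACD. In ACD Cxcl9 stood at 1204 in pericytes, 329.5 (322 to 337) in the fibroblast gate, 186 (170.7 to 201.4) in the smooth muscle gate, 82.0 (64.5 to 103) in the endothelial gate and 33.6 (30.9 to 36.6) in the chondrocyte gate. The log2 ratio of pericytes over the fibroblast gate was 1.87 (1.75 to 1.98) and over the smooth muscle gate 2.70 (2.53 to 2.86). Cxcl10 in ACD had the same order for pericytes but not for the rest, at 1122, then 351 (330.4 to 372) in the smooth muscle gate, 278 (271 to 285) in the fibroblast gate and 200.2 (172 to 231) in the endothelial gate. Gbp4 did not follow this order, since the endothelial gate stood at 661 (609 to 716) and pericytes at 254. For Cxcl10 this order rested on 5 cells: without the 5 that held the most of the gene, the remaining 61 ACD pericytes stood at 283 (238 to 334) for Cxcl10, near the fibroblast gate and under the smooth muscle gate, and without the 5 with the most Cxcl9 the remaining 61 stood at 595 (529.5 to 667) for Cxcl9. The other classes were not trimmed in this way. The fibroblast gate held far more cells, and with them 6967 Cxcl9 UMIs against 667 in pericytes. Among the cell populations that the study plotted, both chemokines were highest in a fibroblast cluster with preadipocyte genes, which was not gated apart here. The study also reported CXCL9 and CXCL10 protein in cells stained for PDGFRA. In addition, it found less Cxcl9 and Cxcl10 in mice whose fibroblasts lacked Ifngr1.

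The same families had medians above 0 in every gated class. The median log2 ratio of the GTPases was 2.28 in pericytes, 2.69 in the endothelial gate, 2.06 in the smooth muscle gate, 1.89 in the fibroblast gate and 0.77 in the chondrocyte gate. For MHC class I and the immunoproteasome the medians were 1.96, 1.96, 1.30, 1.60 and 0.73 in the same order, and for the antiviral genes 1.45, 1.41, 0.91, 0.62 and 0.25. The medians of all ranked genes in these classes lay between -0.10 and 0.00. Whether the response differs between classes was not tested, because each class has 1 library per group.

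**Figure D5:**
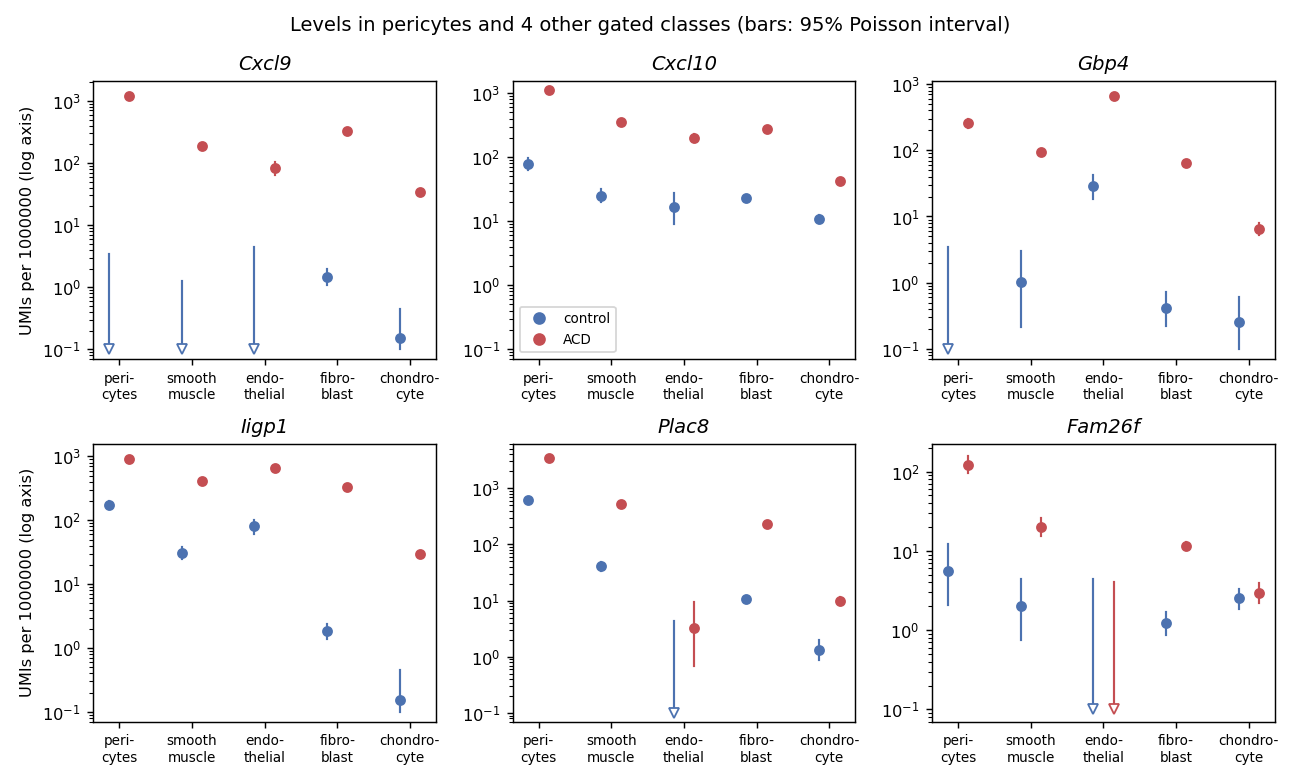
Levels in UMIs per 1000000 (log axis) of 6 genes in pericytes and 4 other gated classes in control (blue) and ACD (red), with 95% Poisson intervals; an open triangle at the lower edge marks a level of 0. Pericytes are highest for Cxcl9, Cxcl10 and Plac8 in ACD, the endothelial gate for Gbp4, and Iigp1 is at 172 in control pericytes against 1.84 in the control fibroblast gate.

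Several genes at the ends of the ranking had a large part of their UMIs in 1 cell. The MHC class II genes Cd74, H2-Ab1 and H2-Aa were the 3 ranked members of their list and stood among the 15 highest genes, with 4, 3 and 3 UMIs in control and 283, 91 and 70 in ACD. A single ACD cell held 159, 50 and 36 of these, together with 23 of the 33 Tyrobp UMIs, 21 of the 33 Fcer1g UMIs and 9 of the 13 Lyz2 UMIs, which are genes of myeloid cells. Without cells holding genes of another class, the ratio of Cd74 was 0.86, against 5.24. After thinning, Cd74 was found in 9.09% (3.41 to 18.7) of ACD pericytes at a median depth of 7821.5, below the 16.1% (14.3 to 18.1) of the chondrocyte gate at 10182, and unthinned in 15.2% and 31.5%. The top 5 ACD pericytes held 278 of the 283 Cd74 UMIs, and the share of cells says nothing of the level. The keratin genes Krt15 and Krt5 had 62 of 63 and 45 of 47 ACD UMIs in 1 cell.

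Markers of other cell types moved in both directions. Of all ranked genes 2.27% were called higher and 4.26% lower. Myeloid markers summed to 61.8 UMIs per 1000000 in control pericytes and 291 in ACD, of which 3 cells held 90.7%, while Lyz2, Tyrobp, Fcer1g, C1qa, C1qb, C1qc, S100a8, S100a9 and Mcpt8 were at 0 in control and Cd68, C1qa, C1qb, C1qc and Mcpt8 in ACD. T and NK cell markers summed to 1 and 11 UMIs. The 6 Schwann cell markers reported here summed to 50.6 and 155, with 43 of 54 control UMIs and 85 of 86 ACD UMIs in 1 cell each and Sox10 at 0 in ACD. The list holds 7 markers, and its 1 ranked member, called higher in ACD, is not among these 6. Keratinocyte markers summed to 277 and 372 with 88.2% and 90.3% in 3 cells, hemoglobin genes to 112 and 105 and melanocyte markers to 5.62 and 1.804. Fibroblast markers, of which 3 of 10 ranked were lower (median -0.74) and none of 12 was at 0, summed to 15371 in control and 8122 in ACD, where 3 cells held 44.3% and 52.2%. Chondrocyte markers, of which 3 of 5 ranked were lower (median -1.71) and none of 12 was at 0, summed to 1566 and 567, where 3 cells held 49.9% and 81.2%. The part of these cells in each gene below was not tested beyond the values without them.

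Several of the 15 lowest genes had a large part of their control UMIs in 1 cell. Trf (transferrin) had 206 UMIs in control, 76 of them in 1 cell, and 5 in ACD. The small proteoglycan Fmod had 258 and 12, the cartilage collagen Col9a3 63 and 1, and the matrix protein Cilp of cartilage 111 and 6. The epidermal genes Krt79, Krtdap and Defb6 had 117 of 124, 62 of 63 and 62 of 63 control UMIs in 1 cell. Myoc, a secreted olfactomedin protein, had 167 UMIs in 22 control cells and 8 in ACD, and the angiopoietin-like Angptl7 287 UMIs in 14 control cells and 19 in ACD. Without cells holding genes of another class, the ratio was -0.97 for Trf, -0.20 for Myoc and 0.75 for Angptl7, but still -2.55 for Fmod. Of the 184 genes called lower, 96 had under 20 UMIs in ACD.

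Many calls depended on the selection. Of the 184 lower genes, 9 were past 2-fold in each setting, ranked there or not, and 157 stayed below 0, against 43 past 2-fold and 87 above 0 of all 98 higher genes. With no limit on Myh11 55 of the 184 and 64 of the 98 were past 2-fold, after selection on thinned cells 72 and 66, and without cells holding genes of another class 103 and 69. Values with no limit on Myh11 are given below for genes whose call they end.

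Chemokines other than the CXCR3 ligands were not higher. Of 10 ranked chemokines and decoy receptors, 2 were at least 2-fold higher, Cxcl9 and Cxcl10, and 5 were lower, beside 2.27% and 4.26% of all ranked genes, with a median of -0.82. Cxcl1, a neutrophil attractant, had 3755 UMIs in 154 control cells and 713 UMIs in 42 ACD cells, levels of 3518 (3407 to 3633) and 1287 (1194 to 1385), and a ratio of -1.44 that was -0.77 with no limit on Myh11. Ccl11 (eotaxin), which draws eosinophils, had levels of 1221 (1156 to 1289) and 496 (439 to 558) and a ratio of -1.28, or -1.09 with no limit on Myh11 and -0.93 after selection on thinned cells. Cxcl2, Ccl7 and Cxcl14 were lower too, at -1.16, -1.09 and -1.33. Cxcl2 was at -0.55 with no limit on Myh11, Ccl7 had 148 of its 315 control UMIs in 1 cell, and Cxcl14, which fibroblasts also make, was at 0.22 without cells holding genes of another class. Ccl2 and Cxcl12, attractants of monocytes and of CXCR4+ cells, had ratios of -0.39 and -0.27. In control Ccl11 stood at 1221 in pericytes, against 75.1 in the smooth muscle gate and 103 in the fibroblast gate.

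Of 14 ranked cytokines and cytokine receptors 2 were lower and none higher, beside 4.26% and 2.27% of all ranked genes, with a median of -0.36. Il6 had 977 UMIs in 116 control cells and 248 in 27 ACD cells, with levels of 915 (859 to 975) and 448 (394 to 507) and a ratio of -1.02, or -0.56 with no limit on Myh11. Tslp, an epithelial-type alarmin, had 42 and 8 UMIs and a ratio of -1.01, or -0.29 with no limit on Myh11. Il34 and Csf1, both ligands of the macrophage receptor CSF1R, had ratios of 0.03 and 0.47. None of 11 ranked adhesion molecules differed by 2-fold, with a median of -0.37. Icam1, the ligand of leukocyte integrins, had levels of 236 (208 to 267) and 171 (139 to 209.6), and Vcam1, with 31 and 7 UMIs, was too low to be ranked. Among 19 ranked genes of the NF-κB pathway 1 was higher and none was lower, beside 2.27% and 4.26% of all ranked genes. The higher gene was Ptgs2, with 36 of its 42 ACD UMIs in 1 cell and a ratio of 1.78 that was 0.91 with no limit on Myh11.

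Immediate-early genes, which respond within minutes to growth factors and stress, lay mostly below control in ACD pericytes. Of 25 ranked members 5 were at least 2-fold lower and none higher, beside 4.26% and 2.27% of all ranked genes. Their median was -0.59, beside -0.10 over all ranked genes, and 24 of 25 lay below 0. Without cells holding genes of another class some of these lay above 0, among them Egr1 at 0.29 and Ier2 at 0.44. Fosb had 1160 UMIs in 170 control cells and 196 in 45 ACD cells, levels of 1087 (1025 to 1151) and 354 (306 to 407), and stayed past 2-fold in each setting, at -1.11 with no limit on Myh11. Fosl2, Klf4, Klf9 and Gadd45b had ratios of -1.55, -1.27, -1.19 and -1.11, which stood at -0.85, -0.96, -0.93 and -0.72 with no limit on Myh11. Fos and Jun were at -0.27 and -0.43, and at 0.26 and 0.0087 without cells holding genes of another class. The nuclear receptor Nr4a3, among the 15 lowest genes, had 156 UMIs in 76 control cells and 16 in 12 ACD cells and was at -1.49 with no limit on Myh11. The median of the list was -0.43 in the smooth muscle gate, -0.50 in the endothelial gate and 0.02 in the fibroblast gate. In 16 heat-shock genes, by contrast, no gene differed by 2-fold, with a median of -0.10.

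Of 22 ranked genes of the interstitial matrix 4 were at least 2-fold lower and none higher, beside 4.26% and 2.27% of all ranked genes. Their median was -0.41, or 0.32 with Myh11 held to 0. Eln (elastin) had 280 UMIs in 69 control cells and 37 in 23 ACD cells, levels of 262 (233 to 295) and 66.8 (47.0 to 92.0), and stayed past 2-fold in each setting tried. Col1a1 and Col1a2, the chains of type I collagen, stood at 2717 and 848 and at 3890 and 1617, but 1 control cell held 1056 of 2900 and 1174 of 4152 UMIs. Their ratios of -1.67 and -1.26 were -0.44 and -0.32 without cells holding genes of another class and 0.55 and 0.78 with Myh11 held to 0. In the basement membrane list 1 of 15 ranked genes was lower, the laminin chain Lama2 at -1.16, and none was higher. Lama2 was at -0.37 with Myh11 held to 0 and at -0.83 as a mean over cells. Col4a1 of the vascular basement membrane stood at 1167 (1104 to 1234) in control and 1157 (1069 to 1249.8) in ACD.

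Of 17 ranked matrix proteases and their inhibitors 1 was higher and 4 were lower, beside 2.27% and 4.26% of all ranked genes. Timp1, an inhibitor of metalloproteinases, stood at 71.2 (56.1 to 89.1) and 417 (365 to 474), but 1 ACD cell held 130 of 231 UMIs, and its ratio of 2.39 was 1.31 without the top cells, 0.89 after selection on thinned cells and 0.79 without cells holding genes of another class. Adamts1 and Adamts4, secreted proteases that cut proteoglycans, stood at 1777 and 666 and at 873 and 341, with ratios of -1.40 and -1.33 that were -0.74 and -0.77 with no limit on Myh11. In the complement list 3 of 12 ranked genes were higher and 1 was lower, beside 2.27% and 4.26% of all ranked genes. The median was 0.64, or -0.0092 with no limit on Myh11 and -0.032 without cells holding genes of another class. The higher ones were the C1 proteases C1ra, C1rb and C1s2, with 1.27, 1.01 and 1.31, and C1ra alone stayed past 2-fold in each setting. C1rb and C1s2 were at 0.54 and 0.76 without cells holding genes of another class. Clu, the lower one, was at 0.61 there and at -0.098 with no limit on Myh11. C1ra, C1rb, C1s1 and C1s2 are close copies, so UMIs may be split among them.

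Of 26 ranked genes by which pericytes and endothelial cells signal to each other, 2 were lower and none higher. The shares of all ranked genes were 4.26% and 2.27%, and the median of the list was -0.33. Tgfb2 had 113 UMIs in 60 control cells and 12 in 12 ACD cells, levels of 106 (87.3 to 127) and 21.7 (11.2 to 37.8) and a ratio of -1.87, which was -0.98 with no limit on Myh11. Tgfb3 had 52 and 7 UMIs and a ratio of -1.38, or -0.06 with no limit on Myh11. The angiopoietin Angpt2 and the growth factor Pdgfa had ratios of -0.32 and -0.28.

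Of 21 ranked receptors and channels of vascular tone 2 were higher and 2 lower, beside 2.27% and 4.26% of all ranked genes, with a median of -0.23. The endothelin receptor Ednrb had 41 UMIs in 23 control cells and 74 in 13 ACD cells, levels of 38.4 (27.6 to 52.1) and 134 (105 to 168), and was past 2-fold in 15 of 16 settings, ranked there or not. P2ry14, a receptor for UDP-sugars, had 23 and 34 UMIs and a ratio of 1.18, or 0.83 with no limit on Myh11. The phosphodiesterases Pde3a and Pde5a, which break down cyclic nucleotides, had ratios of -1.11 and -1.08, but with no limit on Myh11 they were at 0.17 and -0.77. The endothelin receptor Ednra had a ratio of 0.49, and the angiotensin receptor Agtr1a levels of 67.5 (52.8 to 85.0) and 75.8 (54.6 to 102). Of 16 ranked contractile genes 1 was lower, the actin-binding Synpo2 at -1.06 (or -0.45 with no limit on Myh11), and none higher, with a median of -0.20. Tagln, at -0.99, was at 0.67 with no limit on Myh11. The median of the list was 0.50 with no limit on Myh11, which brings in cells of smooth muscle type.

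Calls in the metabolic, stress and remaining lists stand beside 2.27% of all ranked genes higher and 4.26% lower. The metallothioneins Mt1 and Mt2, which bind zinc, and the glutathione transferase Gstm1 were the 3 lower genes of 21 in the oxidative stress list, none of which was higher. Mt1 had 3874 UMIs in 184 control cells and 855 in 61 ACD cells, levels of 3630 (3516 to 3746) and 1543 (1441 to 1649.8), and Gstm1 levels of 577 (533 to 625) and 238 (199 to 282). Gstm1 stayed past 2-fold in each setting. Mt1, at -1.23, was under 2-fold when all deposited barcodes were used (-0.89) and when the cells were thinned (-0.85). Mt2, at -1.03, was past 2-fold in 8 of 16 settings, and was at -0.30 with Myh11 held to 0. Of 12 ranked acute-phase and alarmin genes 2 were higher, Plac8 and the protease inhibitor Serpina3g with 8 and 42 UMIs, and 1 was lower, the pentraxin Ptx3 with 65 and 11 UMIs, with a median of 0.21. Serpina3g, at 2.29, was at 0.19 without cells holding genes of another class and 0.95 after selection on thinned cells, and Ptx3, at -1.25, was at -0.16 as a mean over cells. None of 20 ranked glycolysis and hypoxia genes differed by 2-fold, with a median of -0.06. Of 13 lipid genes 1 was higher and 1 lower: Apod stood at 1.52, with 388 of 622 ACD UMIs in 1 cell, and Ptgis at -1.14. With no limit on Myh11 they were at 0.89 and -0.47. Of 11 ranked cell cycle genes none was higher and 1 was lower, the cyclin-dependent kinase inhibitor Cdkn1c, with 255 and 37 UMIs and a ratio of -1.70 that stayed past 2-fold in each setting. Mki67 had 0 UMIs in control and 2 in ACD. None of 8 ranked steroid and circadian genes passed 2-fold, all 8 lay below 0, and their median was -0.66.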

How the data were processed

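Single-cell RNA-seq libraries of control and ACD mouse ear skin were analysed, 1 per group. The deposited files hold UMI counts per gene and barcode that the authors made with Cell Ranger (3.1.0 per the file headers and the submitters' processing notes, 3.0.2 in the study's methods) on mm10-1.2.0, before their analysis in Seurat 2.0. A barcode was kept when its genes numbered over 200 and under 5000, its UMIs did not exceed 25000 and the mitochondrial share stayed under 8%. The UMI bound is worded as a minimum in the study's methods and was taken here as a maximum. No doublet caller was run, but a setting dropped cells holding genes of another class. Pericytes and gene lists were chosen with earlier results of these data known. Counts were summed over the cells of a class and given per 1000000 with exact Poisson intervals; ratios have exact conditional binomial intervals and shares Clopper-Pearson intervals. Intervals and limits from a count of 0 (3 counts) cover counting error only. A gene with at least 50 UMIs in both libraries together was ranked, and called past 2-fold after 10 was added. Other classes were gated on Myh11 and Acta2 (at least 3 UMIs each, smooth muscle), Pecam1 with Cdh5 (endothelial), Dcn with Pdgfra (fibroblast) and Acan with Col2a1 (chondrocyte). The text names the 15 genes at each end of the ranking, the genes of the selection, up to 4 genes at each end of a list, and genes that define a pathway; a few others were named after their values were seen, and some genes are not reported here. Of 17 alternatives, 4 were added after the data were seen: no limit on Myh11, selection on thinned cells, and leaving out the top cell of each gene or the top 5 of Cxcl9 and Cxcl10. Gene positions are from GENCODE M21, and promoters from RefSeq. The code was tested on simulated data and run in Python 3.11.15 with numpy 2.4.6, scipy 1.17.1, pandas 2.3.3 and matplotlib 3.10.9.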

Additional observations from a re-analysis of the deposited data

Results flagged for a closer look

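Among the listed genes and the 15 at each end of the ranking, 3 were past 2-fold in pericytes and past 2-fold the other way in the smooth muscle, endothelial or fibroblast gate, and none of these differences was tested. Krt15, a keratin of basal epidermis and hair follicle, had a log2 ratio of ACD over control of 3.17 in pericytes and -1.43 in the smooth muscle gate. Krt5, a keratin of basal epidermis, had 2.89 in pericytes and -2.02 in the smooth muscle gate. In pericytes 1 ACD cell held 62 of 63 Krt15 UMIs and 45 of 47 Krt5 UMIs. Angptl7, an angiopoietin-like secreted protein, had -2.65 in pericytes, where 1 control cell held 118 of 287 UMIs, and 2.33 in the endothelial gate.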

How the results depend on the processing

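No paired analysis was possible because each group is 1 library, and for the same reason no library could be left out. For gene list medians, the share and the counts of calls, 395 values under an alternative stayed within the spread or factor used to compare them, 36 moved and 1 reversed. The log2 ratio of the pericyte share, -1.54, was -1.12 with no limit on Myh11. The total of higher genes, 98, became 65 with Myh11 at 0 (39 of them among the 98), 166 with genes of at least 20 UMIs and 41 with cells thinned to 2000 UMIs (27 among the 98). The total of lower genes, 184, became 113 with no limit on Myh11 (55 among the 184), 291 with 1 added, 284 with genes of at least 20 UMIs and 110 with thinned cells (55 among the 184). The number of genes ranked was 4315, 1965 with Myh11 at 0, 7291 with at least 20 UMIs and 1560 with thinned cells. For other changes the cause was not tested.

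With Myh11 at 0 the medians were 0.62 for fibroblast markers, 0.27 for chondrocyte markers (the reversed one), -0.77 for vascular tone, 0.32 for interstitial matrix and 0.074 for adhesion molecules. With no limit on Myh11 they were 0.50 for contractile genes, -1.09 for chondrocyte markers, -0.040 for basement membrane, -0.0092 for complement and -0.13 for cell cycle. Without cells holding genes of another class they were -0.44 for fibroblast markers, -0.27 for chondrocyte markers, 0.029 for adhesion, -0.032 for complement and -0.36 for immediate-early genes. With selection on thinned cells they were 0.13 for contractile genes and -1.49 for fibroblast markers, and with all pericytes thinned -0.41 for fibroblast markers, -0.69 for vascular tone, 0.86 for antiviral genes, 0.18 for complement and -0.38 for immediate-early genes. With a mean over cells they were -0.20 for fibroblast markers and -0.31 for immediate-early genes. Fibroblast markers were at -0.35 with Rgs5 at 2 or more, chondrocyte markers at -0.96 with Rgs5 at 5 or more, -1.11 under the stricter cell filter and -2.28 without top cells, and chemokines at -1.203 under the stricter filter.

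Single genes that were past 2-fold and changed sign in a setting in which they were ranked were Krt15 (-1.47 with all deposited barcodes, -0.12 without the top cells), Krt5 (-0.43 with all barcodes), Krt79 (0.52 with all barcodes) and Defb6 (2.34 with all barcodes). With Myh11 at 0 the sign also changed for Cytl1 (0.18), Col1a1 (0.55), Col1a2 (0.78), Mmp2 (0.81), Clu (0.059) and Clec3b (0.56), and Pde3a was at 0.17 with no limit on Myh11 and 0.28 with selection on thinned cells. Depth limits genes with few UMIs, and 96 of the 184 lower genes had under 20 in ACD.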
